A study of Mus musculus with 9 samples.

Results

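Alx1, Alx4, Pax1, Pax9, Irx3, Irx5 and Lhx9 encode transcription factors of the anterior limb mesenchyme. These 7 genes, of 21951 protein-coding genes in the GENCODE M21 annotation of mouse build mm10, were chosen by name for known anterior expression. They were chosen by no measured value, but with earlier results of these data known. Peaks of acetylated histone H3 lysine 27 (H3K27ac), a mark of active promoters and enhancers, were collected over the span of each gene and 50 kb on each side. The length covered by peaks in this window, in base pairs (bp), was compared between WT, Shh-/- and Shh-/-;Gli3-/- forelimb buds.

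Sonic hedgehog (SHH) is secreted from posterior limb mesenchyme and opposes the formation of GLI3 repressor, so limb buds without SHH have GLI repression throughout. Alx4 and Alx1 encode paired-type homeodomain factors, and mice without Alx4 form extra anterior digits with ectopic anterior Shh. Irx3 and Irx5 are neighbouring Iroquois homeodomain genes required for anterior and proximal limb skeleton, Lhx9 encodes a LIM homeodomain factor acting with Lhx2 in limb outgrowth, and Pax1 and Pax9 encode paired box factors best known from the sclerotome.

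Forelimb buds came from E10.5 embryos (33 to 34 somites), with a single pair of limb buds per MicroChIP. WT embryos were littermates, Shh-/- embryos carried the Shh tm1amc null allele on both chromosomes, and Shh-/-;Gli3-/- embryos, called double mutant below, were also homozygous for the Gli3 Xt-J null allele. The labels give the strain background as mixed, while the study's methods place both null alleles on Swiss Webster. Each genotype had 2 H3K27ac libraries and 1 input and was represented by 1 peak list, with no values per library, so nothing computed from the lists has a replicate error and no test was made. Whole forelimb buds were used, and fewer anterior cells cannot be told apart from less acetylation per cell.

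The lists differed in size, with 25096 WT, 32085 Shh-/- and 34641 double mutant peaks covering 10.4, 12.9 and 17.1 Mb. Shh-/- therefore covered 1.25 times and the double mutant 1.66 times the WT length, which sets the scale for every ratio below. Promoter peaks at 5 of 5 limb mesenchyme markers were present in each list (summed promoter width 19100, 25950 and 34150 bp), and no list held 1 at 2 hindlimb, 4 ectodermal or 3 neural markers. Of 5 somite and sclerotome markers, 2 WT, 3 Shh-/- and 2 double mutant promoters had a peak (2100, 2750 and 2150 bp), while Nkx3-2 and Uncx had none. Of 4 blood and endothelial markers only Klf1 had a promoter peak, in Shh-/- (150 bp), and of 3 muscle precursor markers Lbx1 and Met had 1 in the double mutant (350 bp together). The part of these other cell types in the results was not tested.

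Coverage at the anterior genes was greatest in Shh-/- limb buds and was near the WT length in the double mutant. Summed over the 7 windows, peaks covered 16400 bp in WT, 30150 bp in Shh-/- and 16600 bp in the double mutant, made up of 32, 57 and 24 peaks. The Shh-/- sum was 1.84 times the WT sum, above the 1.25-fold larger list, and the double mutant sum was 1.01 times the WT sum, below its 1.66-fold larger list. Without Alx4 the sums were 14700, 22500 and 15000 bp, and without Alx4 and Lhx9 they were 5250, 7850 and 4700 bp, so Shh-/- had the highest sum with or without these genes, whereas WT and the double mutant changed places.

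A gene was called higher or lower when its covered length differed by at least 1.5-fold and 250 bp. Of the 6 members with a peak, Lhx9, Alx4 and Irx3 were called higher in Shh-/- than in WT, against 25.3% of all genes with peaks, and 0 were called lower, against 4.31%. Between the double mutant and WT, only Alx1 was called higher, against 33.6% of genes, and 0 members were called lower, against 2.35%. Between the double mutant and Shh-/-, 0 members were called higher, against 17.8%, whereas Alx4, Irx3 and Pax1 were called lower, against 7.43%. The 3 comparisons share lists and are not independent of each other.

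Among genes with peaks in both lists, the median ratio of the members was 1.61 for Shh-/- over WT, beside 1.2 for all genes. For the double mutant over WT it was 0.941 beside 1.32, and for the double mutant over Shh-/- it was 0.703 beside 1.1. The median member thus lay above the median gene in Shh-/- and below it in the double mutant. Whether a member lay above or below WT in the double mutant changed with the setting for each of Alx1, Alx4, Irx3, Irx5 and Lhx9. Alx4 and Irx3 were called both higher in Shh-/- than WT and lower in the double mutant than Shh-/-, which held for 974 of 17640 genes with a peak (5.52%).

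Which calls were made depended on how the unequal lengths of the lists were treated. Per 10 Mb of list, only Alx4 was called higher in Shh-/- than WT (against 11.7% of genes) and 0 members lower (9.31%). Lhx9, Alx4, Irx3 and Irx5 were called lower in the double mutant than WT (20.3%) and 0 higher (8.09%). Lhx9, Alx4, Irx3 and Irx5 were also called lower in the double mutant than Shh-/- (17.3%) and 0 higher (7.01%). Irx5 turned from above to below WT in Shh-/- on this scale, at a ratio of 0.927. On this scale the median of all genes moved to a log2 ratio of -0.06, -0.33 and -0.27 in the 3 comparisons, all below 0.

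**Figure D1:**
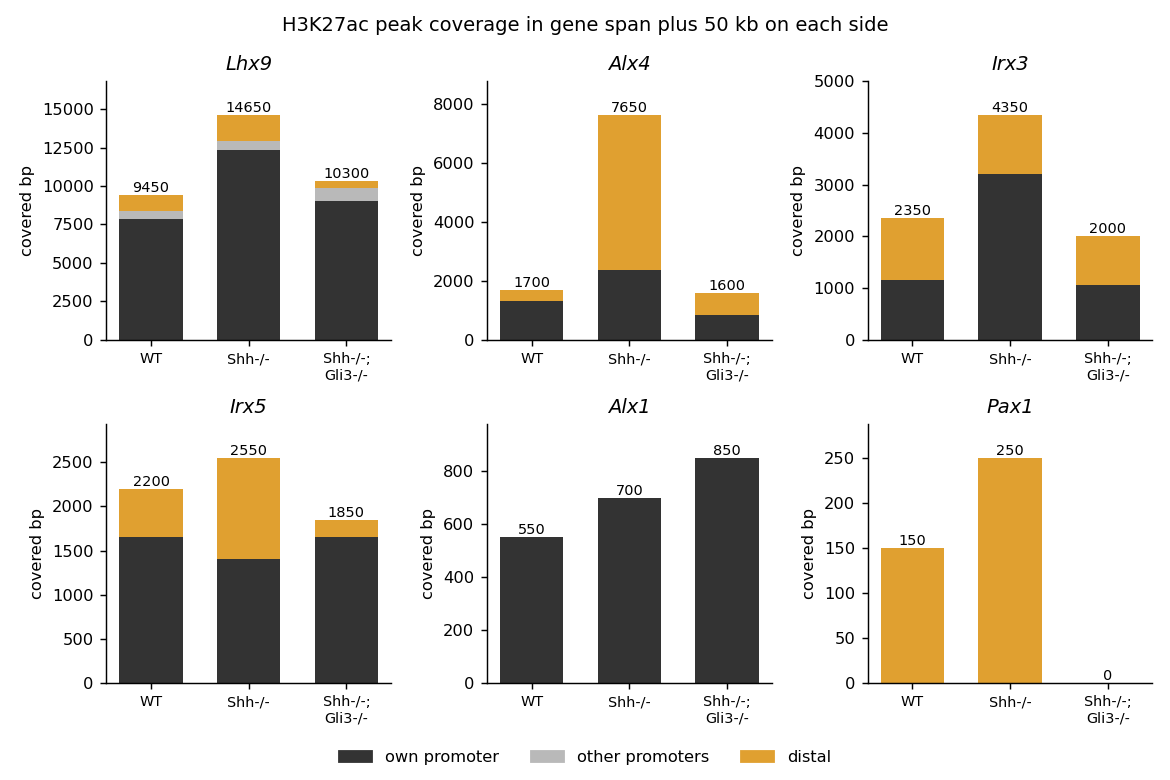
Covered bp (vertical axes, each panel with its own scale from 0) in each of the 3 peak lists for 6 members, divided into peaks at the gene's own promoter, at promoters of other genes, and distal peaks. Pax9, with 0 bp in all 3 lists, is not drawn; the Shh-/- bar, in bp not scaled to the size of the list, is the highest for every drawn gene except Alx1.

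**Figure D2:**
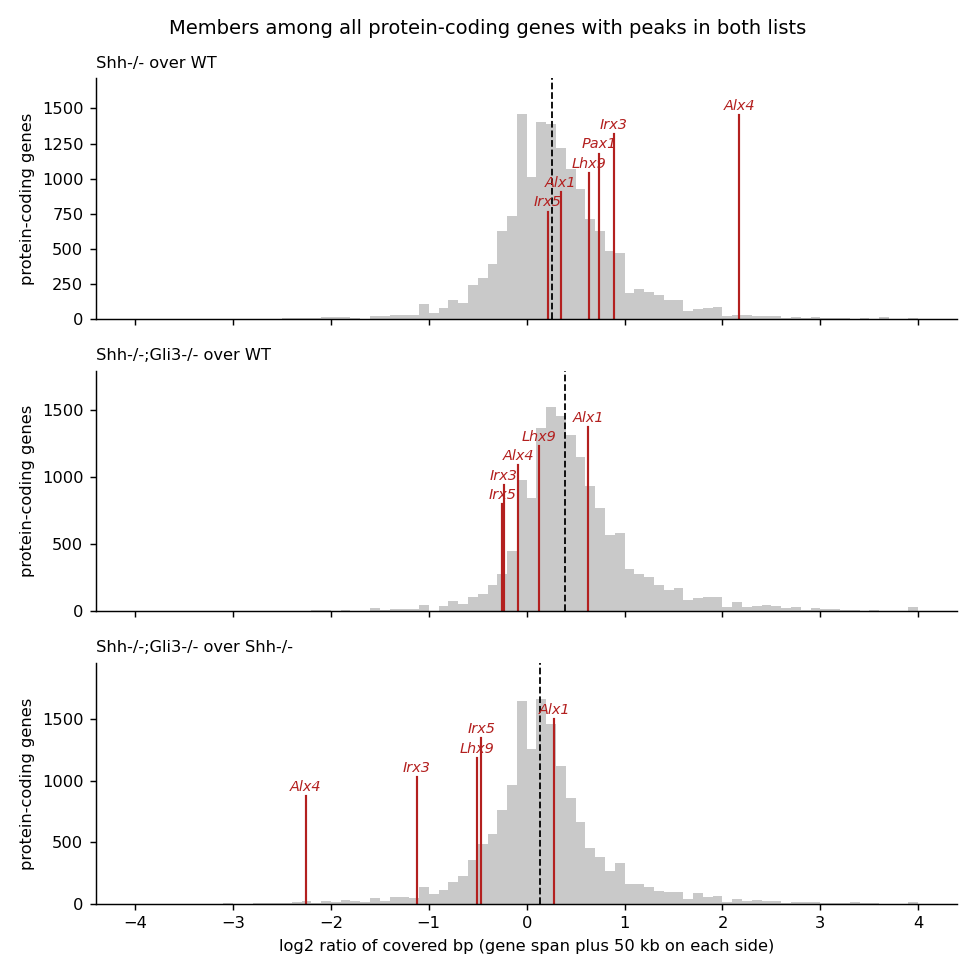
Histograms of the log2 ratio of covered bp for all protein-coding genes with peaks in both lists (values beyond 4 in either direction are placed in the last bin), with members as red lines and the median of all genes as a dashed line. Alx4 and Irx3 lie to the right of the median in Shh-/- over WT and to the left of it in both comparisons of the double mutant.

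Alx4 differed most among the members. Its window (mouse chromosome 2, gene span 93642384 to 93681339, plus strand) had 1700 bp of peaks in WT, 7650 bp in Shh-/- and 1600 bp in the double mutant, in 3, 26 and 5 peaks. The Shh-/- length was 4.5 times the WT length, the 191st highest ratio of 15278 genes, and the double mutant length was 0.209 times the Shh-/- length, the 63rd lowest ratio of 15636 genes. WT and double mutant were nearly equal in length in this window, at a ratio of 0.941, but this ratio depended on the setting. It was 0.569 per 10 Mb of list, 0.586 with 10 kb on each side and 1.54 with 100 kb on each side. Alx4 was called higher in Shh-/- than WT and lower in the double mutant than Shh-/- under each of the 11 alternative settings run, with Shh-/- over WT ratios of 2.56 to 7.47.

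The Alx4 promoter was acetylated in all 3 genotypes. A peak counted as a promoter peak when it touched the stretch reaching 2 kb before and 1 kb past a protein-coding start. Such peaks at Alx4 spanned 1300 bp in WT, 2350 bp in Shh-/- and 850 bp in the double mutant. In WT this was a single peak from 93642550 to 93643849, which begins just inside the gene and runs over the coding exon into the intron. Shh-/- had a wider peak there, from 93642600 to 93644249, and 2 more peaks at and upstream of the start, whereas the double mutant had 2 separate peaks of 500 and 350 bp. Within the ranking of each list by the authors' statistic, the best Alx4 peak stood in the top 15.9% in WT, 3.22% in Shh-/- and 40.8% in the double mutant. The lists differ in number of peaks, so these positions do not measure a change between genotypes.

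Most of the Alx4 difference lay outside the promoter. Distal peaks, which overlap no promoter of a protein-coding gene, covered 400 bp in WT, 5300 bp in Shh-/- and 750 bp in the double mutant, in 2, 23 and 3 peaks. Of the 23 in Shh-/-, 9 formed a cluster in the first intron, between 93644400 and 93649049, and 11 a cluster upstream of the gene, between 93615650 and 93632199, in intergenic sequence. Of the 5950 bp gained in Shh-/-, the stretch from 1 to 7 kb downstream of the start held 51.3% and the stretch from 30 to 5 kb upstream held 27.7%. The downstream stretch also includes the ends of own-promoter peaks. Of the 9 intronic peaks 8 had a false discovery rate (FDR) under 0.05 in the deposited list, as did 6 of the 11 upstream peaks.

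The intron cluster was almost absent from the WT list and absent from the double mutant list. From 1 to 7 kb downstream of the start, 615 bp were covered in WT, 3665 bp in Shh-/- and 265 bp in the double mutant. Each length includes the end of an own-promoter peak, and the double mutant length was only that (93643300 to 93643649). A single narrow WT peak, from 93647000 to 93647149 with a log2 fold over input of 2.26 and an FDR of 0.211, coincided with an intronic Shh-/- peak from 93646850 to 93647149 with a log2 fold of 3.51. Upstream the picture was more shared. The stretch from 30 to 5 kb held 250 bp in WT, 1900 bp in Shh-/- and 750 bp in the double mutant, and 2 upstream regions, at 93616350 to 93616799 and 93625400 to 93625649, were held by both mutants and not by WT. A further region, at 93615800 to 93616099, was held by WT and the double mutant and adjoined a Shh-/- peak that ended at 93615799.

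**Figure D3:**
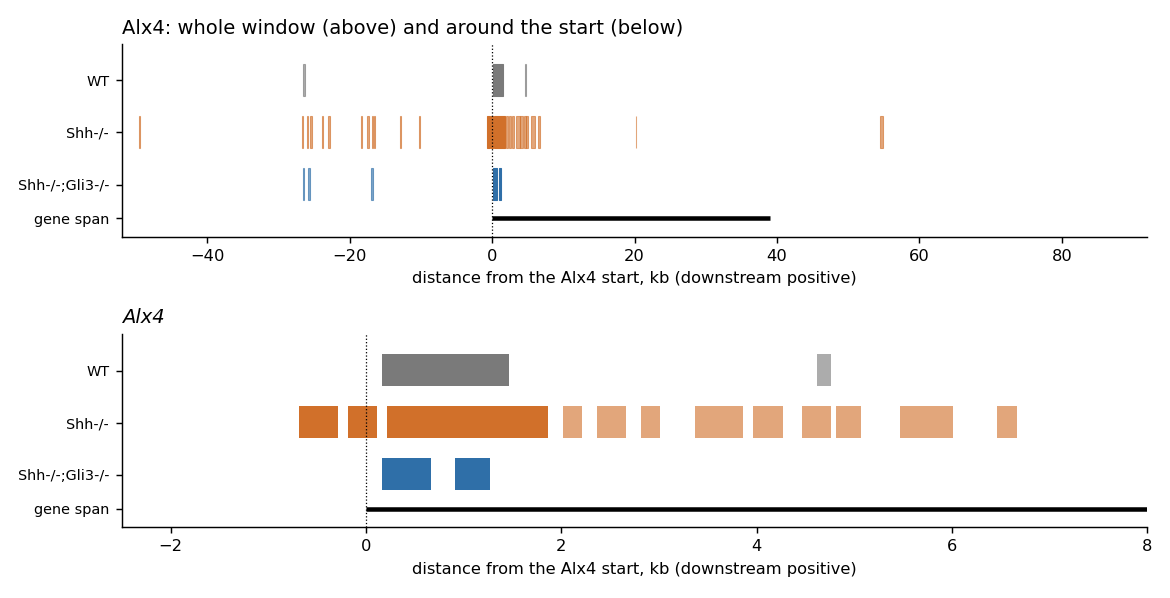
H3K27ac peaks at Alx4 in the 3 lists, by distance from the start in kb, over the whole window (upper panel, peaks outlined so that the narrowest stay visible) and from 2.5 kb upstream to 8 kb downstream (lower panel). Own-promoter peaks are in full colour and distal peaks are lighter; the upper panel holds 3 WT, 26 Shh-/- and 5 double mutant peaks.

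The intronic Alx4 peaks found in Shh-/- alone with the highest folds had log2 folds of 3.98 (93645750 to 93646249) and 3.36 (93647200 to 93647449). Their sequences are shown as the Shh-/- regions of highest fold in the intron cluster that the other lists lack. Capitals mark the 50 bp bin that holds the largest statistic of the peak, letters are those of the plus strand of GRCm38 (the assembly behind mm10), and each name gives the distance of the region's middle from the start. The GC content was 61.3% and 58.8%.
Alx4 +3.6 kb, chr2:93645926-93646225: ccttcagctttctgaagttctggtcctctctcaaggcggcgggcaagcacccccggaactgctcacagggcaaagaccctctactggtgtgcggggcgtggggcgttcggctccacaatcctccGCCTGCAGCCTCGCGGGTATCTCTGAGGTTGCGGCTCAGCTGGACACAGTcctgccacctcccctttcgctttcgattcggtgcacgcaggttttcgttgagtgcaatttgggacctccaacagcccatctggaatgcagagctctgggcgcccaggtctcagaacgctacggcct
Alx4 +4.9 kb, chr2:93647200-93647449: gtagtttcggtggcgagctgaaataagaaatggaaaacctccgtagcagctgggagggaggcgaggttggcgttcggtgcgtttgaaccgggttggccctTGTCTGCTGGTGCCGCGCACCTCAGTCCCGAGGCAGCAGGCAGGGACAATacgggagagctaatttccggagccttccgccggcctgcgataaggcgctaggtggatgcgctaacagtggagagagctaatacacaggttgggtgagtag

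Irx3 (chromosome 8, 91798525 to 91802067, minus strand) showed the same order of lists at its promoter. Its window held 2350 bp of peaks in WT, 4350 bp in Shh-/- and 2000 bp in the double mutant. The own promoter carried 1150, 3200 and 1050 bp, ratios of 2.78 for Shh-/- over WT and 0.328 for the double mutant over Shh-/-. These promoter ratios ranked 479th highest of 9310 genes and 127th lowest of 9665 genes.

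The Irx3 difference was partly a joining of separate peaks. In Shh-/- a single peak of 2800 bp ran from 91799150 to 91801949 over most of the gene, the 89th widest of its list. This stretch also includes exon and intron sequence of the noncoding Irx3os, and the mark carries no strand. WT had 3 promoter peaks of 150 to 600 bp and a separate peak of 1050 bp over the coding sequence, from 91799400 to 91800449, and the double mutant had a promoter peak of 1050 bp and 2 smaller peaks over the coding sequence. Because a peak counts as distal or promoter as a whole, the coding peak of WT and the double mutant was counted as distal and the same stretch in Shh-/- as promoter. With peaks within 1 kb of each other joined, Irx3 was not called higher in Shh-/- than in WT (3550 and 5150 bp) but was still called lower in the double mutant (2450 bp) than in Shh-/-.

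Downstream of the gene, within 50 kb, Irx3 had peaks in Shh-/- only. These covered 825 bp, in 3 peaks of which 1 reached into the 3′ end of the gene, against 0 bp in WT and in the double mutant. They included the region just past the gene end (91797800 to 91798249, log2 fold 2.91) and an intergenic region 42.8 kb downstream of the start (91759200 to 91759399, log2 fold 2.91). With 100 kb on each side the Irx3 window held 3150 bp in WT and 3700 bp in the double mutant, so both lists had peaks farther out. The region 42.8 kb downstream is shown as the Irx3 peak farthest from the gene within 50 kb, with a GC content of 56.0%.
Irx3 +42.8 kb, chr8:91759200-91759399: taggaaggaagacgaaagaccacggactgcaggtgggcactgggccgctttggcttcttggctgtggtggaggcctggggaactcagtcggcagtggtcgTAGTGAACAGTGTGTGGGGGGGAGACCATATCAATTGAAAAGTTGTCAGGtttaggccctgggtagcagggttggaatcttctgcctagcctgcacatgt

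Irx5, in the same gene cluster (92357625 to 92376286, plus strand), changed less. It had 2200 bp of peaks in WT, 2550 bp in Shh-/- and 1850 bp in the double mutant, and its promoter width was 1650, 1400 and 1650 bp. No comparison of these lengths reached a call. Its promoter was divided into 6 peaks of 200 to 350 bp in WT and carried an 800 bp peak over the start of the coding sequence in Shh-/- (92357900 to 92358699) and an 850 bp peak there in the double mutant (92357800 to 92358649).

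Distal length at Irx5 was highest in Shh-/- and lowest in the double mutant, as at Pax1. It was 550 bp in WT, 1150 bp in Shh-/- and 200 bp in the double mutant. All of these regions lay inside the gene near its start, between 92358850 and 92361699, in coding exons or introns. The best ranked Irx5 peak stood in the top 32.7% of the WT, 14.2% of the Shh-/- and 24.8% of the double mutant list, positions within lists of unlike size.

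Lhx9 was the most widely acetylated member in every genotype. On chromosome 1 (138825186 to 138848577, minus strand), its window held 9450 bp in WT, 14650 bp in Shh-/- and 10300 bp in the double mutant. The promoters of Lhx9 accounted for 7850, 12350 and 9000 bp of this. The Shh-/- window was 1.55 times the WT window, which just reached a call (it was 1.24 times per 10 Mb of list), and the double mutant window was 0.703 times the Shh-/- window, which did not.

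The annotation gives Lhx9 an outer group of starts and an inner group 6.1 kb downstream, and acetylation was widest at the inner group. There the WT list had a peak of 4200 bp (138838150 to 138842349), the Shh-/- list a peak of 8450 bp (138836000 to 138844449), and the double mutant a peak of 6600 bp (138836500 to 138843099). The Shh-/- peak was the widest of the 32085 peaks in its list and stood 126th by the authors' statistic, while the WT peak was 13th and the double mutant peak 15th in width. From 3 to 13 kb downstream of the outermost start, WT had 6550 bp, Shh-/- 8777 bp and the double mutant 7800 bp. Both mutants thus exceeded WT at the inner starts in bp not scaled to list size.

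The outer Lhx9 starts differed from this. From 2 kb upstream to 3 kb downstream of the outermost start, 2250 bp were covered in WT, 3823 bp in Shh-/- and 1200 bp in the double mutant. The double mutant was thus below WT at the outer starts and, in bp not scaled to list size, above it at the inner starts. These parts were neither scaled nor put to the call rule. The double mutant list covered 1.66 times the WT length, and per 10 Mb of list the whole Lhx9 window was 0.658 times WT.

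Distal peaks around Lhx9 covered 1050 bp in WT, 1700 bp in Shh-/- and 400 bp in the double mutant, in 4, 7 and 2 peaks. The WT distal peaks inside the gene (200, 550 and 200 bp) overlapped double mutant peaks that count as own-promoter peaks. The order of WT and double mutant thus depends on how peaks were classed. The WT distal peaks at 138836650 to 138836849 and 138837350 to 138837899 also lay inside an own-promoter peak of Shh-/-. The Shh-/- distal peak of highest fold lay upstream, over a noncoding exon of 1700019P21Rik. This region was covered over 100 bp in WT, 600 bp in Shh-/- (138876600 to 138877199, log2 fold 4.06) and 200 bp in the double mutant. The promoter of the neighbouring 2310009B15Rik, also in the window, was covered over 550, 600 and 900 bp, and so was widest in the double mutant, unlike Lhx9.

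An intergenic region 47.0 kb downstream of the outermost Lhx9 start, beyond the end of the gene, was found in Shh-/- only (138801500 to 138801749, log2 fold 3.05). A further Shh-/- region lay upstream of Lhx9 in an intron of 2310009B15Rik (138855100 to 138855299, log2 fold 3.21). The intergenic region is shown as the strongest intergenic peak near Lhx9 that was absent from the other lists, with a GC content of 46.8%.
Lhx9 +47.0 kb, chr1:138801500-138801749: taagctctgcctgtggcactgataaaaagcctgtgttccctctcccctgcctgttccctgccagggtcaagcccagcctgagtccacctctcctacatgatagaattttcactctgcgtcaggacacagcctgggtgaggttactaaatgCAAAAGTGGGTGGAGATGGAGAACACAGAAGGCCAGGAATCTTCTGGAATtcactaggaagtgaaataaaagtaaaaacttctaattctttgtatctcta

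Alx1 (chromosome 10, 102998707 to 103030215, minus strand) had little peak coverage. Its window held 550 bp in WT, 700 bp in Shh-/- and 850 bp in the double mutant, in 3, 2 and 2 peaks. All of these peaks were own-promoter peaks around the inner starts, 1.1 to 1.4 kb downstream of the outermost start, and none was distal. Alx1 was the only member whose double mutant length was the greatest, at 1.55 times WT, a difference of 300 bp or 6 of the lists' 50 bp steps. Per 10 Mb of list the same ratio was 0.934, and with peaks within 1 kb joined it was a log2 ratio of -0.22, so the direction depended on the setting.

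Pax1 and Pax9 were nearly or wholly without called peaks. At Pax1 (chromosome 2, 147361925 to 147393295, plus strand) peaks covered 150 bp in WT, 250 bp in Shh-/- and 0 bp in the double mutant. None overlapped the promoter window of the protein-coding start, which lies 3.07 kb downstream of the outermost start. However, a 100 bp Shh-/- peak (147362050 to 147362149, FDR 0.130) lay 0.17 kb downstream of the outermost start. A single Pax1 peak, 68.0 kb downstream of the outermost start in Shh-/- (147429900 to 147430049, FDR 0.0329), had an FDR under 0.05. The call of Pax1 as lower in the double mutant rests on this peak and the 100 bp peak. The single WT peak (147429750 to 147429899) adjoined the peak at 68.0 kb without overlapping. At Pax9 (chromosome 12, 56691767 to 56712822, plus strand) no list held a peak in 121 kb.

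**Figure D4:**
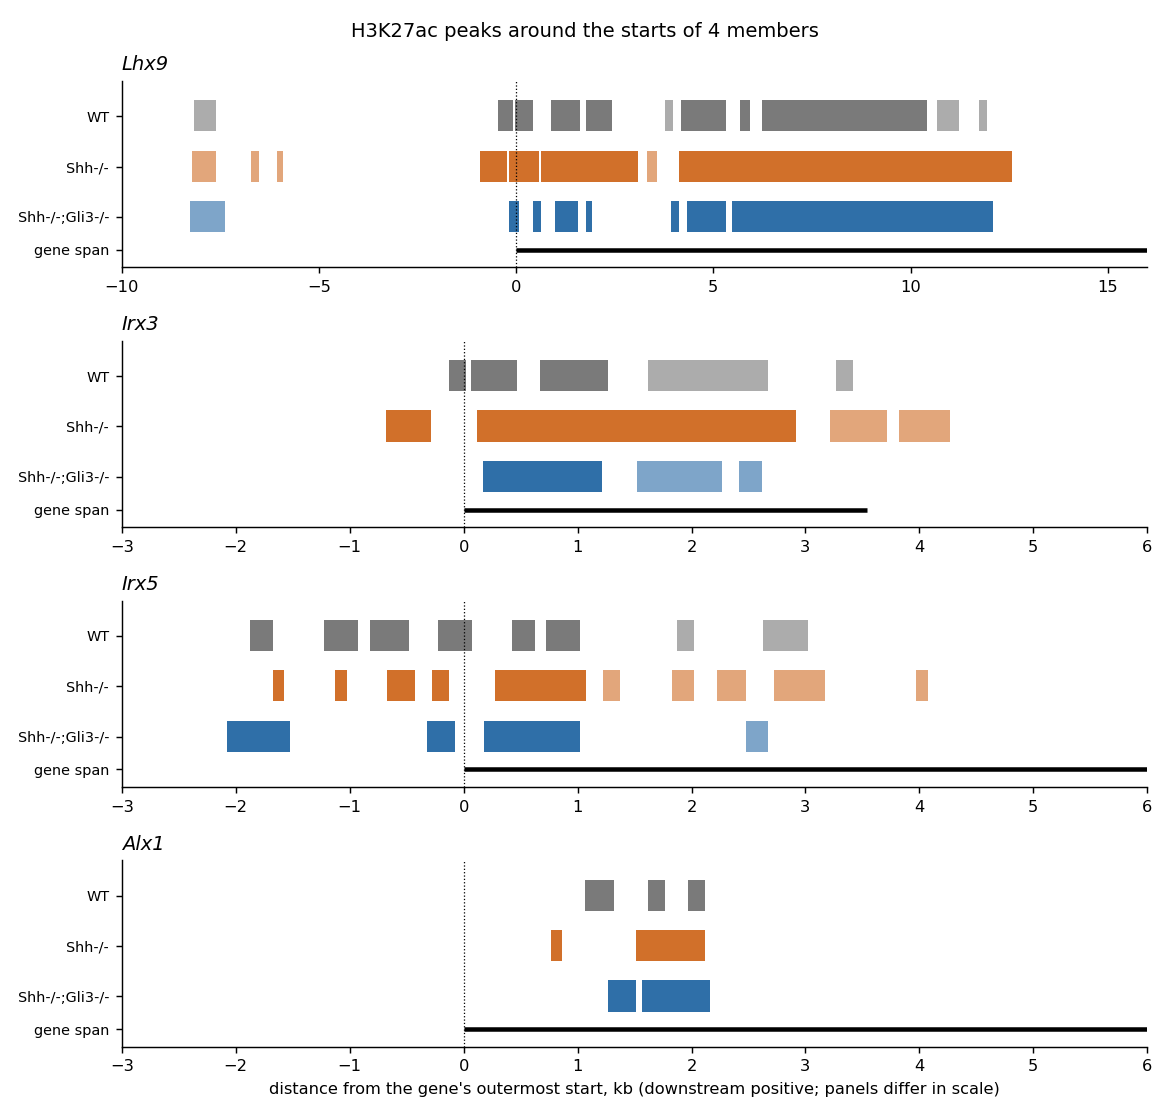
H3K27ac peaks around the starts of Lhx9, Irx3, Irx5 and Alx1 in the 3 lists, by distance from the outermost start of the gene in kb (panels differ in scale). Own-promoter peaks are in full colour and all others are lighter; Lhx9 and Irx3 have wider joined peaks in Shh-/- (8450 and 2800 bp) than in WT (4200 and 1050 bp at most).

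Own promoters and distal peaks were also counted separately. For own-promoter width, Lhx9, Alx4 and Irx3 of 5 members with promoter peaks were called wider in Shh-/- than WT (24.2% of all genes) and 0 narrower (5.37%). Alx1 was called wider (28.6%) and Alx4 narrower (3.08%) in the double mutant than WT, and 0 members were called wider (15.6%) but Alx4 and Irx3 narrower (9.82%) in the double mutant than Shh-/-. The Irx3 calls count peaks whole, and the separate WT and double mutant peaks over its coding sequence counted as distal. The Lhx9 call for Shh-/- over WT also depends on this. WT peaks of 200 and 550 bp that counted as distal lay inside the 8450 bp own-promoter peak of Shh-/-.

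For distal length, Lhx9, Alx4 and Irx5 were called higher in Shh-/- than WT (26.8% of all genes) and 0 lower (10.9%). In the double mutant, Alx4 was called higher than in WT (36.6%) and Lhx9 and Irx5 lower (8.99%). At Lhx9 the 3 WT distal peaks inside the gene all overlapped double mutant peaks that count as own-promoter peaks, so the same stretches were counted in different classes. Set against Shh-/-, the double mutant had 0 members called higher (27.5%) and 4 called lower, namely Lhx9, Alx4, Pax1 and Irx5 (15.3%).

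To see which genotypes held the same distal elements, distal peaks of the 3 lists were joined into regions where they overlapped by at least 1 bp. The members' windows held 47 such regions, of which 33 (70.2%, Wilson 95% interval 56.0 to 81.3%, counting error only) were in the Shh-/- list alone. Across the genome 25.3% of 35274 distal regions were in that list alone. The double mutant alone held 1 of the 47 regions (2.13%) against 38.8% across the genome, and all 3 lists held 2 (4.26%) against 9.17%.

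Alx4 supplied 24 of the 47 regions, 20 of them found in Shh-/- alone. Without Alx4, 13 of 23 regions (56.5%, 36.8 to 74.4%) were in Shh-/- alone. Neighbouring regions share a locus and are not independent, and with gaps of up to 500 bp bridged the count was 14 of 25 (56.0%) beside 24.8% across the genome. Of 4 regions counted as WT alone, 3 (all at Lhx9) overlapped promoter peaks of a mutant, and the other was the Pax1 peak that adjoins one in Shh-/-.

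**Figure D5:**
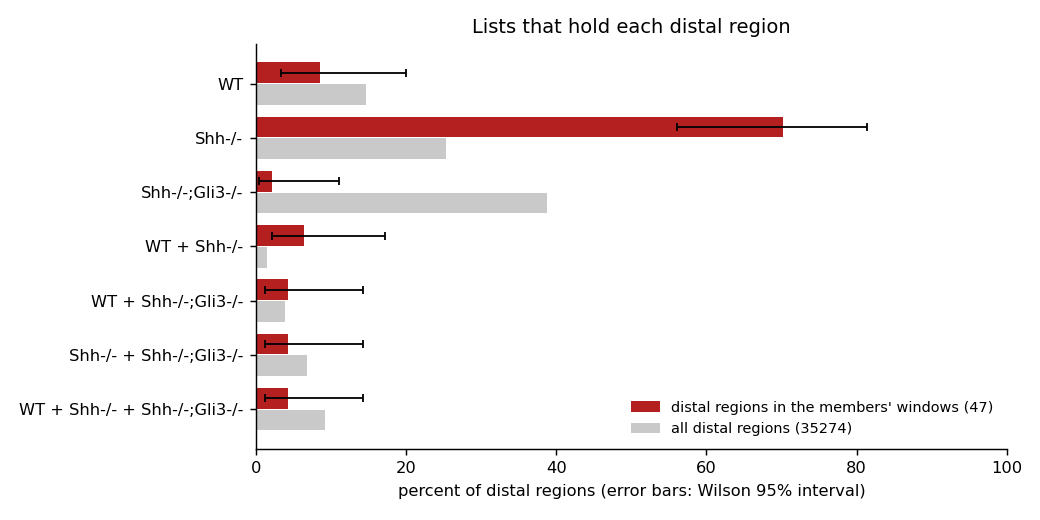
Percent of distal regions (horizontal axis, 0 to 100) held by each combination of the 3 lists, for the 47 regions in the members' windows with Wilson 95% intervals and for all 35274 distal regions. The Shh-/- list alone holds 70.2% of the members' regions against 25.3%, and the double mutant list alone 2.13% against 38.8%.

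The distal peaks of the members were narrow and of modest fold. Their median width was 200 bp in each list, and the Shh-/- peaks had log2 folds over input from 2.28 to 4.06. Of the 40 Shh-/- distal peaks 28 (70.0%) had an FDR under 0.05, of 11 WT peaks 5 (45.5%) and of 8 double mutant peaks 6 (75.0%).

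Read base by base, most of the WT length at these genes was also covered in Shh-/-. Of the 16400 bp covered in WT, 87.8% was also covered in Shh-/-, above the 71.9% over the whole WT list. Lhx9 carried most of this (9200 of 9450 bp, 97.4%), and without it the share was 74.8%, with Alx1 (54.5%), Irx5 (61.4%) and Pax1 (0%) below the whole list. The double mutant covered 72.0% of the members' WT length (56.8% without Lhx9), below the 81.6% over the whole list. Of the 16600 bp covered in the double mutant, 85.2% (73.0% without Lhx9) was also covered in Shh-/-, against 55.0% over the whole double mutant list. Of the 30150 bp covered in Shh-/-, 46.9% was also covered in the double mutant, against 72.8% over the whole Shh-/- list. The share also covered in WT was 47.8%, against 57.5%. At the members 1850 bp were covered in the double mutant alone and 12800 bp in Shh-/- alone, lengths that were not computed over the whole lists.

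The 300 bp around the largest statistic of each distal region were searched on both strands for GACCACCCA, a GLI consensus. It was in 0 of the 47 windows of the members and in 0.255% of 35263 windows on assembled chromosomes. An exact match this rare could not show a difference in 47 windows, so no conclusion on GLI sites is drawn. TAATTA, a core recognised by homeodomain factors and chosen later, was in 2 of the 47 windows, both at Irx5 (4.26%), and in 7.43% of all.

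Other genes placed the members in context. Of 5 family relatives (Irx1, Irx2, Irx4, Irx6 and Lhx2), Lhx2 was called higher in Shh-/- than WT, as were 25.3% of all genes. It had 4650 bp in WT, 8300 bp in Shh-/- and 6900 bp in the double mutant, and no other of these 5 was called in any comparison. The other Iroquois genes had at most 200 bp in any list, against 2350 and 2200 bp at Irx3 and Irx5 in WT. A call needs a difference of 250 bp, so none of them could be called.

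Of 4 other genes of anterior mesenchyme (Gli3, Msx1, Msx2 and Bmp4), 3 were called higher in Shh-/- than WT (Msx1, Msx2 and Bmp4, against 25.3% of all genes) and 3 in the double mutant than WT (Msx1, Gli3 and Bmp4, against 33.6%), and 0 were called lower in either. Msx2, a homeodomain target of BMP signalling, had the same order of lists as Alx4, with 2700 bp in WT, 7450 bp in Shh-/- and 1950 bp in the double mutant. Gli3, the gene mutated in the double mutant, was instead called higher in the double mutant than Shh-/-, with 7050, 7200 and 14250 bp.

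Posterior genes and SHH targets were mostly called higher in the double mutant, in bp not scaled to list size. Of 12 such genes, 11 were called higher in the double mutant than WT (33.6% of all genes) and 0 lower (2.35%), with a median ratio of 1.86 beside 1.32 for all genes. The double mutant list covered 1.66 times the WT length. The ratios of Hoxd12 (1.63), Hoxd13 (1.59) and Ptch1 (1.625) lay below that. Those of Hoxd11, Sall1, Tbx2, Hand2, Bmp2 and Grem1 lay above it, and Hhip and Osr1 had 0 bp in WT. The calls of these genes were not repeated per 10 Mb of list. Against Shh-/-, 8 were called higher (17.8%) and Bmp2 lower (7.43%), with a median ratio of 1.95 beside 1.1. Gli1, a direct target of SHH signalling, was called in no comparison over its whole window and was highest in WT (6850, 5050 and 5400 bp). Most of that length lay at promoters of other genes. Its own promoter held 800 bp in WT and 0 bp in both mutants, and its distal peaks covered 700, 0 and 150 bp. Hand2, a posterior regulator, had 3050 bp in WT, 1500 bp in Shh-/- and 9150 bp in the double mutant, and the SHH receptor gene Ptch1 had 5600, 1750 and 9100 bp. In Shh-/- against WT, Hand2 and Ptch1 were called lower (4.31% of all genes) and Bmp2, Tbx2 and Osr1 higher (25.3%). The median ratio was 0.816 beside 1.2. Bmp2 (100 bp in WT and 850 bp in Shh-/-) and Osr1 (0 and 300 bp) had little coverage. The Hoxd genes of this list share most of their window and count as 1 locus.

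The genes with the most similar lengths over the 3 lists were found as the smallest distance of log2(covered bp + 250), and genes with overlapping windows were left out. For Alx4 this was Irf2bpl, with 1400, 6200 and 2050 bp at a distance of 0.492, and no other of 21948 genes lay within 0.5. For Irx3 it was Trak1 (2350, 3850 and 2100 bp, distance 0.177), for Irx5 Fem1c (0.0762), for Lhx9 Cic (0.355) and for Alx1 Mlycd (0.0391). Irx5 and Alx1 had many such neighbours, with 928 and 854 genes within 0.5, and Pax1 and Pax9 were at distance 0 from 5 and 4309 genes.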

How the data were processed

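H3K27ac MicroChIP-seq of E10.5 forelimb buds was represented by 3 peak lists, made by the authors with CisGenome from reads aligned to mm10 with Bowtie2 (version 2.2.5 in the submitters' processing notes). Groups were taken from sample titles, because the genotype entry reads wild type for every sample. The labels place each list under replicate 1 and do not say whether the replicates were pooled before peak calling. The lists do not give the depth of each library; the study's methods state only a minimum for all libraries.

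The deposited lists give start, end, a statistic (a score that orders the list), the largest log2 fold over the input of that genotype, a −log10 Poisson p-value (not used) and an FDR (q-value). The authors' folds were not compared between lists. Peak ends fall on a 50 bp grid and were read as 1-based.

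Peaks were intersected with GENCODE M21 (basic set) in Python 3.11.15 (numpy 2.4.6, pandas 2.3.3, scipy 1.17.1). Promoters reached 2 kb upstream and 1 kb downstream of protein-coding starts. All genes with a peak in either list formed the background. A gene with 0 bp in 1 list was called when the other held at least 250 bp. Sequences came from the NCBI RefSeq copy of GRCm38. Code was tested on simulated data. The members and gene lists were chosen with earlier results of these data known. Some genes of these lists are not reported here. All members were named, as were the 2 distal regions of highest fold per member and up to 2 found in a mutant and not in WT. Alternatives varied peak filters, windows, merging, scaling and the call threshold.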

Additional observations from a re-analysis of the deposited data

How the results depend on the processing

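The calls of Alx4 as higher in Shh-/- than WT and lower in the double mutant than Shh-/-, and of Irx3 as lower in the double mutant than Shh-/-, were made under every alternative. Of 130 counts and shares recomputed, 35 moved (counts by over 1.5 times, the share beyond its interval), and 22 of the other counts did not hold the same members as reported. The narrower promoter in the double mutant against WT was that of Irx5 in place of Alx4 after merging (5.24% of all genes). In the same comparison the member with more covered bp was Irx5 in place of Alx1 at a log2 fold of at least 3 (45.4%). Of 164 single-gene log2 ratios 18 changed sign, 12 of them in the double mutant against WT. Of values with a call, 1 changed sign, Alx1 in the double mutant against WT, with a log2 ratio of -0.22 when peaks within 1 kb were merged and -0.10 per 10 Mb of list, against 0.63 as reported. The shares of all genes called moved with these settings too and are given in parentheses. The causes were not tested.

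For Shh-/- against WT, members with more covered bp fell from 3 to 1 (Alx4) per 10 Mb of list (11.7%) and at a 2-fold threshold (12.8%). Irx5 became the 1 member with a narrower promoter with equal numbers of peaks (7.31%) and with equal covered length (12.7%). Merging left 1 wider promoter (Alx4, 26.2%). Less distal length was called at 1 member with 10 kb flanks (Lhx9, 10.7%) and with equal covered length (Irx3, 26.6%), where 1 (Alx4, 15.1%) had more.

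For the double mutant against WT, members with more covered bp numbered 2 with 100 kb flanks (34.4%) and 0 after merging (31.8%), per 10 Mb (8.09%), at 2-fold (17.6%) and with equal covered length (8.09%), against 1 reported (33.6%). Members with less, 0 as reported (2.35%), numbered 2 at a log2 fold of at least 3 (4.57%), 1 with 10 kb flanks (3.22%), 1 after merging (3.49%), 4 per 10 Mb (20.3%) and 4 with equal covered length (25.8%). Wider promoters numbered 2 with FDR below 0.05 (36.5%) and with 500 bp promoter windows (30.5%). They numbered 0 after merging (26.4%) and with equal covered length (13.9%), where 3 were narrower (24.0%). More distal length was called at 0 members with equal numbers of peaks (31.9%), 10 kb flanks (34.9%) and equal covered length (9.47%). Less was called at 1 with FDR below 0.05 (6.14%) and 4 with equal covered length (37.1%).

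For the double mutant against Shh-/-, members with less covered bp numbered 6 after merging (10.6%) and 5 with equal covered length (28.6%), against 3 reported (7.43%). Irx5 became the 1 member with a wider promoter when only peaks of FDR below 0.05 were used (19.5%) and when the lists held the same number of peaks (17.3%). Narrower promoters numbered 4 after merging (13.5%) and 4 with equal covered length (29.0%). The share of distal regions held by Shh-/- alone was 56.0% with gaps of up to 500 bp bridged (24.8% across the genome). Equal covered length, which keeps the highest ranked peaks of each list down to the length of the smallest list, was an alternative added with the results in view.

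No paired analysis was possible because the peak lists carry no values per replicate, so leaving out a replicate could not be done either. The depth of each library was not used here, and absence from a list is not absence of the mark.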
